A study of Mus musculus with 5 samples.

Results

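The mitogen-activated protein (MAP) kinase genes Mapk3, Mapk8 and Mapk14, the downstream kinase gene Mapkapk2, and the dual-specificity phosphatase genes Dusp1, Dusp2 and Dusp6 were followed in RNA of mouse peritoneal macrophages. Members were all probe sets whose gene symbol in the platform annotation, or its current name by Entrez identifier, was one of these 7 genes. That gave 9 probe sets for 6 genes, out of 12488 probe sets on the array. Mapk8, Mapkapk2 and Dusp6 each had 2 probe sets, and Mapk14, Dusp1 and Dusp2 had 1. Mapk3, which encodes the kinase ERK1, had none listed and was not analysed here.

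MAP kinases stand at the end of relays in which a MAP3 kinase phosphorylates a MAP2 kinase, which in turn phosphorylates the MAP kinase. Toll-like receptors and other sensors of microbial nucleic acid switch on the ERK, JNK and p38 branches in macrophages. Through the kinase MK2, p38 prolongs the life of inflammatory messages that carry AU-rich elements, and dual-specificity phosphatases end the signal by removing phosphate from threonine and tyrosine of the kinases. RNA levels report the amount of message, not the phosphorylation by which these kinases act.

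Each of 5 Affymetrix MG-U74Av2 arrays received the RNA of 1 sample, and a probe set of such an array is a group of short probes against 1 transcript or a few. One group was the untreated control, called naive (n = 1 array), whose label gives no sex, age or pooling. The second was female F1 mice of the cross C57Bl/6 x C3H, aged 12 weeks, given poly IC, short for polyinosinic polycytidylic acid, a man-made double-stranded RNA that stands in for viral RNA (n = 2 pools of mice). The dose was 0.1 mg per mouse for the second pool and is not stated for the first. The third was mice of the same cross, sex and age given 0.1 mg poly IC per mouse plus 6 g per kg ethanol as an acute oral dose (n = 2 pools). The series asks how ethanol alters gene induction by poly IC, and no array of ethanol without poly IC was analysed here. The sources used here give neither the time to harvest nor the route of poly IC. Pools are the replicates, so p-values rest on the spread between pools, moderated by the spread of other probe sets of like signal. The single naive array was assumed to vary like the others.

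The values were scaled signals. Array medians lay between 769 and 901.95, the 3' to 5' signal ratio of actin between 1.04 and 1.15, and the 3' signal of 18S ribosomal RNA between 5113 and 66548, highest on the array of poly IC pool 2. The pools of a group correlated at r = 0.974 for poly IC and 0.963 for ethanol across 6500 probe sets, which are not independent replicates. The typical gap between pools, as the median absolute difference on the log2 scale, was 0.174 for poly IC and 0.223 for ethanol. All 10 macrophage markers, among them Lyz2, Csf1r, Adgre1 and Cd68, exceeded the brightest unspiked control probe set on every array. Of 10 B cell markers with a probe set, 8 did so as well, such as Ms4a1 at 58202 on the naive array, while Vpreb3 and Cr2 lay under it on some arrays. In such bulk RNA, fewer cells of a type and less RNA per cell cannot be told apart.

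Of the 9 member probe sets, 7 passed the filter on dim probe sets (mean signal of at least 551.8 over the 5 arrays), and all 6 genes were represented among them. The dimmer Mapk8 probe set read 298.0 on the naive array, 386.7 and 41.9 after poly IC, and 260.9 and 300.9 after poly IC plus ethanol. It lay under the brightest unspiked control on 4 of 5 arrays. The dimmer Dusp6 probe set lay under it on all 5, between 29.9 and 234.2. Neither gives a usable level, and neither was called in any comparison when the filter was lifted.

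Promoter sequences are shown for the 5 genes whose probe sets were called in at least 1 comparison, since some of them rose together and others fell after poly IC. Each is the stretch of 250 bases before the annotated start, 5' to 3' on the gene's strand, from RefSeq on GRCm38.p6. Dusp1 is at chr17:26508473-26508722 (minus strand), Dusp2 at chr2:127335909-127336158 (plus), Mapkapk2 at chr1:131097844-131098093 (minus), Dusp6 at chr10:99262981-99263230 (plus) and Mapk14 at chr17:28691092-28691341 (plus, the first of its 2 listed starts). Capitals mark matches on either strand to TGACGTCA (a full cyclic AMP response element), CACGTG (E-box), TGANTCA (AP-1), GGG then any 5 bases then CC (NF-kB) or GAAA then any 2 bases then GAAA (interferon-stimulated element), with overlapping NF-kB matches run together.
Dusp1: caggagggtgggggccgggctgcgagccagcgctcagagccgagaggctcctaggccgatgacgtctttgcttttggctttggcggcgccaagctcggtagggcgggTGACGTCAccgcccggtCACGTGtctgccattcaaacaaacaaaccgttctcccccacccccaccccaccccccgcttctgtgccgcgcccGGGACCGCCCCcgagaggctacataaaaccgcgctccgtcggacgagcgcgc
Dusp2: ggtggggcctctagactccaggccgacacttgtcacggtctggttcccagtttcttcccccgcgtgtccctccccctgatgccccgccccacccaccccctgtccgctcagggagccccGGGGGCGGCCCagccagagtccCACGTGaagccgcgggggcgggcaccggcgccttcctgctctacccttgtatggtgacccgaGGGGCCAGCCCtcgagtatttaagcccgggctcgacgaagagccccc
Mapkapk2: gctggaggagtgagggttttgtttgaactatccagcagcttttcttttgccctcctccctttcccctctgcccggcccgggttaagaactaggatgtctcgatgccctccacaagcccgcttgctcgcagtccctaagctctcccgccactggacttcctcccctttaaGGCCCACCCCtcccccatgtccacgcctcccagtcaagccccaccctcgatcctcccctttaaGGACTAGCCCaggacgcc
Dusp6: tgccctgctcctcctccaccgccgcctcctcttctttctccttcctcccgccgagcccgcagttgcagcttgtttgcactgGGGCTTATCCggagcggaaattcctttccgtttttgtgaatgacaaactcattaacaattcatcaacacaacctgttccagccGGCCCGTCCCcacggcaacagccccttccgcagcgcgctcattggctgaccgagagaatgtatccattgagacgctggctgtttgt
Mapk14: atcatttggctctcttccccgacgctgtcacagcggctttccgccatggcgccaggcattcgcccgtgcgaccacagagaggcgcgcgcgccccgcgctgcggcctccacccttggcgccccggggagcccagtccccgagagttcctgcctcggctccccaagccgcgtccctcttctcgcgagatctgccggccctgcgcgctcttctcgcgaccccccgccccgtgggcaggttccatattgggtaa

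The Dusp1 promoter held 1 full cyclic AMP response element, whose first base lay 143 bases before the start, and an E-box at 126 bases before it. Of 32851 RefSeq promoter windows of the same length, 1.55% held the full element and 6.02% the E-box. The shorter core TGACG occurred 3 times in Dusp1, with 2 of these inside the full element, and 17.8% of all windows held it. Dusp2 held an E-box at 109 bases before the start and 4 NF-kB matches in 2 overlapping pairs. Mapkapk2 and Dusp6 each held 2 NF-kB matches and Dusp1 held 2 that overlap, but 45.8% of all windows match that loose pattern. Matches to it stood in promoters of genes that rose and of 1 that fell. The first Mapk14 window held none of the 5 patterns, and the second held 1 interferon-stimulated element, as 2.98% of windows do. AP-1, present in 6.75% of windows, was in none of those printed. These are matches of letters, not measured binding.

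Poly IC was set against naive to see which members the viral mimic moved. Mapkapk2, Dusp2 and Dusp1 were higher and Mapk14 and Dusp6 were lower, while Mapk8 did not pass the test. By limma with Benjamini-Hochberg adjustment over 6500 probe sets, 6 of the 7 member probe sets were called at adjusted p under 0.05, against 30.9% of all probe sets. Of these, 4 were higher (11.7% of all probe sets were) and 2 lower (19.2% of all were). With the filter at the 60th percentile of signal, which all 7 passed, 42.9% of all probe sets were called. The members were chosen with earlier results of these data known, so such shares, here and below, are no independent test of them. The median difference was 0.69 for the 7 member probe sets and -0.14 for all 6500, on the log2(signal + 250) scale used for every difference here, which understates changes of dim probe sets. Centring each array on its median moved that overall value to 0.05 and the share of higher among called probe sets from 37.9% to 53.5%. All 6 member calls stood with that centring.

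Mapk14 encodes p38 alpha, the stress kinase upstream of MK2. Its signal was 18409 on the naive array and 4665 and 3827 in the poly IC pools (4246 ± 592, SD, n = 2), so both pools lay far below the naive array. The log2 difference was -2.06 (SE 0.19, limma adjusted p = 4.64e-05), the 79th lowest of 6500 probe sets. Its probe set carries the suffix s_at that marks probes shared by several transcripts. The value may thus combine transcripts of Mapk14 or of other genes, and there was no other Mapk14 probe set to set beside it. Mapk8 encodes the JNK family kinase JNK1. Its signal was 2861.5 on the naive array and 2425 and 2397 in the poly IC pools, a log2 difference of -0.23 (95% interval -0.69 to 0.24, limma adjusted p = 0.453).

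Mapkapk2 encodes MK2 itself. Its brighter probe set read 10613 on the naive array and 35474 and 34578 in the poly IC pools (35026 ± 634, SD, n = 2), a log2 difference of 1.70 (SE 0.13, limma adjusted p = 1.51e-05). The dimmer probe set read 1789 against 9322 and 10313.5, a difference of 2.30 (SE 0.19, limma adjusted p = 1.97e-05). Both probe sets thus rose, with every poly IC value above 3 times its naive value. The message for p38 alpha was lower and the message for its substrate kinase higher on the same arrays.

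Dusp1 encodes MKP-1, a nuclear phosphatase that acts on p38 and JNK. Its signal was 39880.4 on the naive array and 65887 and 62934 in the poly IC pools, a log2 difference of 0.69 (SE 0.12, limma adjusted p = 0.00234). This rise was the smallest among the called members, and quantile normalization brought it to 0.34 (adjusted p = 0.0584). Its adjusted p was 0.0549 when the variance was fitted without an intensity trend. Dusp2 encodes PAC-1, an inducible nuclear phosphatase of activated leukocytes. Its signal was 2230.1 on the naive array and 10833 and 10336 in the poly IC pools (10584 ± 351, SD, n = 2), a difference of 2.13 (SE 0.18, limma adjusted p = 2.62e-05). Dusp6 encodes MKP-3, a cytoplasmic phosphatase that prefers ERK. Its signal was 15734 on the naive array and 3583 and 2480.4 in the poly IC pools (3032 ± 779.5, SD, n = 2), a difference of -2.30 (SE 0.24, limma adjusted p = 0.000122). The pools of Dusp6 lay 0.489 log2 units apart, wider than the 0.174 typical of poly IC pools, and stood at 22.8% and 15.8% of the naive signal.

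**Figure D1:**
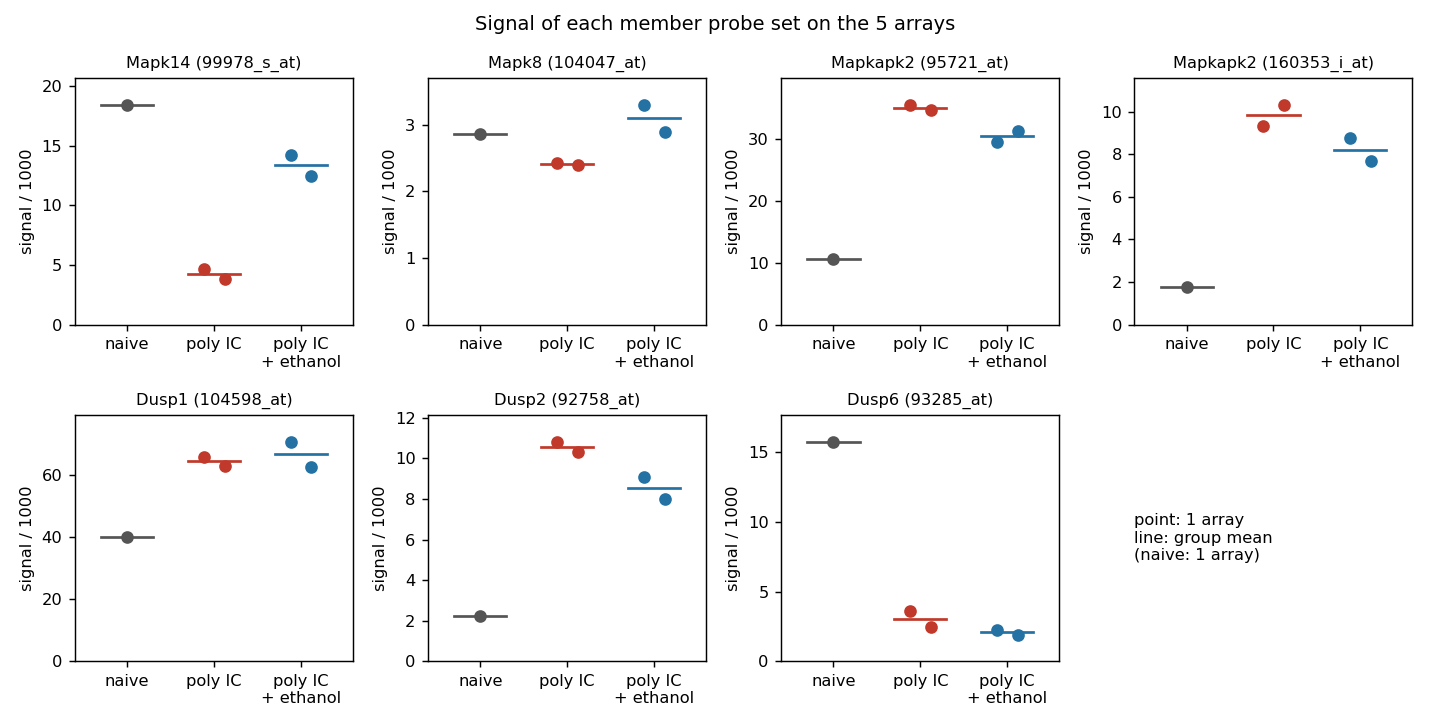
Signal (divided by 1000, linear axis from 0) of the 7 member probe sets that passed the filter on each of the 5 arrays; points are arrays and lines are group means, with 1 naive array. Mapk14 is low in both poly IC pools and higher, but below the naive array, in both ethanol pools. Dusp6 is low in all 4 treated pools.

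The question of the series, what ethanol added to poly IC, was answered for the members by setting the ethanol pools against the poly IC pools. Mapk14 was higher with ethanol, and no other member probe set passed the test. By limma with Benjamini-Hochberg adjustment, 1 of 7 member probe sets was called, against 9.37% of all probe sets, of which 5.06% were higher and 4.31% lower. With the filter at the 60th percentile, 17.4% of all probe sets were called. The median difference was -0.20 over the 7 and 0.07 over all 6500. Median-centred arrays changed the share of higher among all called probe sets from 54.0% to 37.6% and left the call of Mapk14 in place.

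The Mapk14 signal was 4665 and 3827 in the poly IC pools and 14242.5 and 12459.9 in the ethanol pools (13351 ± 1260.5, SD, n = 2). The groups did not overlap, and the ethanol mean was 3.14 times the poly IC mean. With 2 pools in each group, ordering alone separates the groups with a probability of 0.333, which holds for the other members too. The log2 difference was 1.60 (SE 0.15, 95% interval 1.25 to 1.95, limma adjusted p = 0.000737), the 12th highest of 6500 probe sets. The call held in each of 15 settings, with differences of 1.45 to 1.74. The largest limma adjusted p was 0.0329, in the fit without the intensity trend. The same poly IC arrays enter the fall against naive and this rise, so the 2 differences are not independent. As a share of the naive signal, Mapk14 stood at 25.3% and 20.8% in the poly IC pools and at 77.4% and 67.7% in the ethanol pools.

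Mapk8, the other MAP kinase member, read 3296 and 2892.5 in the ethanol pools, both above the 2425 and 2397 of the poly IC pools. The difference of 0.33 had a 95% interval of -0.06 to 0.71 and did not pass (limma adjusted p = 0.27). Whether the ethanol difference of Mapk14 exceeded that of Mapk8 was not tested.

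Mapkapk2 read 29553 and 31254 by the brighter probe set and 8749 and 7668 by the dimmer one in the ethanol pools, each below both poly IC pools. The differences of -0.20 (95% interval -0.45 to 0.04) and -0.25 (-0.60 to 0.09) had limma adjusted p-values of 0.286 and 0.346. A fall by more than 0.60 thus lay outside both intervals.

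Among the phosphatases, Dusp1 read 70737 and 62491 in the ethanol pools, on either side of the poly IC values, so its groups overlapped. Its difference was 0.05 (95% interval -0.18 to 0.27, limma adjusted p = 0.832), and -0.05 with median-centred arrays. Dusp2 read 9064 and 7978, below both poly IC pools, with a difference of -0.31 (-0.64 to 0.02, adjusted p = 0.232). Dusp6 read 2218 and 1925, again below both poly IC pools, with a difference of -0.48 (-0.93 to -0.03, unadjusted p = 0.0378, limma adjusted p = 0.168). It became -0.24 (adjusted p = 0.687) without poly IC replicate 1 and -0.73 (adjusted p = 0.175) without poly IC replicate 2. Mapk14 and Dusp6 were both low after poly IC, but the ethanol pools were higher for the first and not higher for the second.

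**Figure D2:**
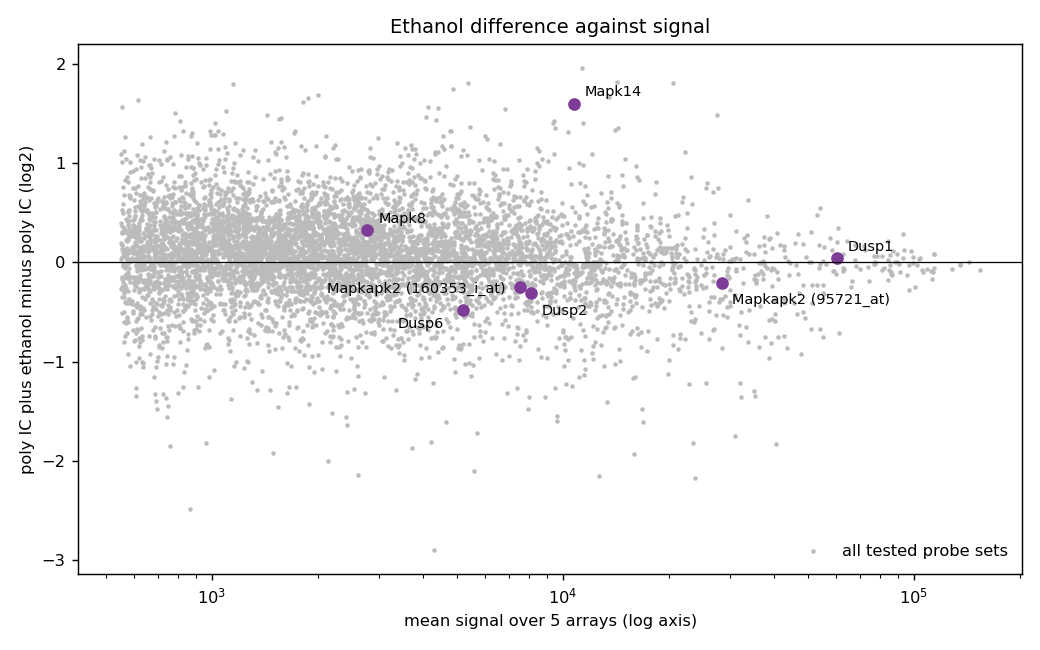
Log2 difference of poly IC plus ethanol minus poly IC against mean signal over the 5 arrays (log axis) for the 6500 tested probe sets (grey) and the 7 member probe sets (purple). Mapk14 at 1.60 stands near the top edge of the cloud, and the other 6 lie between -0.48 and 0.33.

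Poly IC plus ethanol was also set against naive. Mapkapk2, Dusp2 and Dusp1 were higher and Dusp6 was lower, and Mapk14 did not pass the test here. By limma with Benjamini-Hochberg adjustment, 5 of 7 member probe sets were called, against 16.1% of all probe sets, with 4 higher (8.25% of all) and 1 lower (7.85% of all). With the filter at the 60th percentile, 25.2% of all probe sets were called. Median-centred arrays moved the share of higher among all called probe sets from 51.2% to 63.7%, with the same number of members called.

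The differences from naive were 1.496 and 2.05 for the 2 Mapkapk2 probe sets (SE 0.13 and 0.19, limma adjusted p = 5.67e-05 and 6.53e-05). Dusp2 differed by 1.82 (SE 0.18, adjusted p = 0.000118) and Dusp1 by 0.73 (SE 0.12, adjusted p = 0.00296). Dusp6 differed by -2.79 (SE 0.24, adjusted p = 4.91e-05), the 4th lowest of 6500 probe sets. Its ethanol pools stood at 14.1% and 12.2% of the naive signal. Mapk14 differed by -0.46 (95% interval -0.89 to -0.03, unadjusted p = 0.0376, limma adjusted p = 0.14). Without ethanol replicate 1 it was -0.55 and passed, in a fit that left 1 ethanol pool and called more probe sets over all. Mapk8 differed by 0.10 (-0.37 to 0.57, adjusted p = 0.782).

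The levels of each member could therefore be ordered within its own probe set. For Mapk14 the order was naive, ethanol, poly IC, and the difference of the first pair did not pass the adjusted test. For both Mapkapk2 probe sets and Dusp2 it was poly IC, ethanol, naive, again with no call between the first pair. For Dusp1 the treated groups overlapped above naive. For Dusp6 the order was naive, poly IC, ethanol, and the last pair did not pass the adjusted test. For Mapk8 no pair of groups passed.

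**Figure D3:**
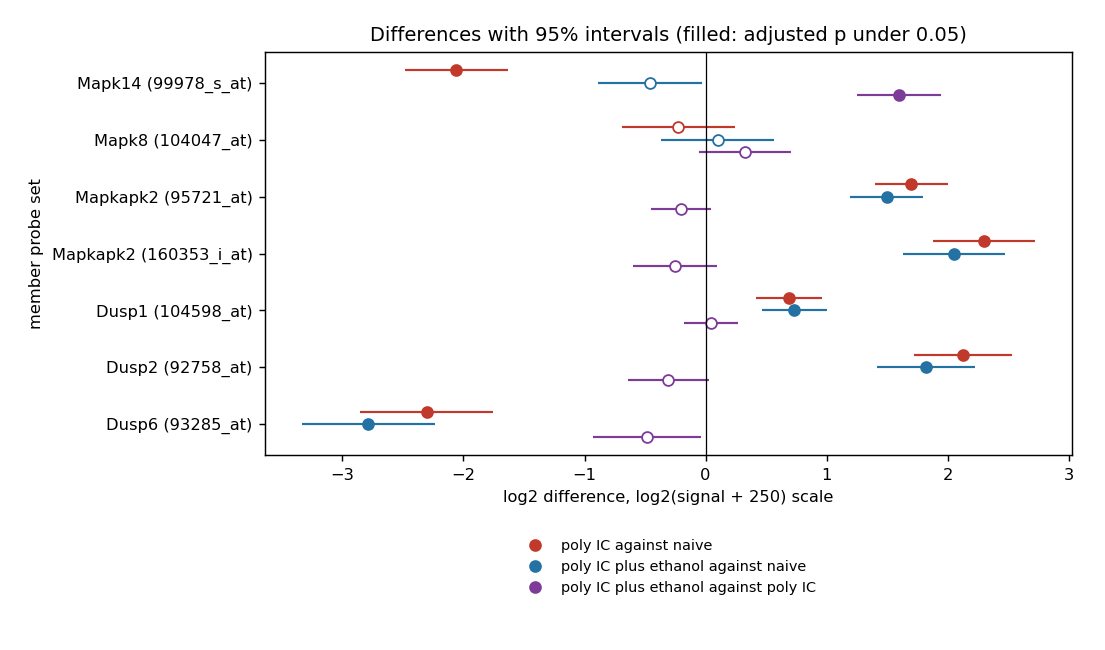
Log2 differences (log2(signal + 250) scale) with 95% intervals for the 7 member probe sets in 3 comparisons, filled where the limma adjusted p was under 0.05. Filled points of Mapk14 lie at -2.06 for poly IC against naive and 1.60 for ethanol against poly IC, and those of Dusp6 at -2.30 and -2.79 against naive.

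The genes whose profiles over the 5 arrays were most like those of the called members were found by the root mean square distance between centred log2 profiles, over 5442 other genes. For Mapk14 they were Blk at 0.150, Nav2 at 0.200 and Ppp1r21 at 0.201, where the median gene lay at 0.875. Blk encodes a Src family kinase of B cells and was among the B cell markers. Its signal was 23875 on the naive array, 7161 and 5888 in the poly IC pools and 16333 and 17184.5 in the ethanol pools. For Mapkapk2 the nearest were Ptprj at 0.0179, Krt81 at 0.0537 and Rnf19b at 0.0946 (median 0.776). For Dusp1 they were Cpd at 0.00984, Atp5d at 0.0512 and Stard7 at 0.0607 (median 0.45). Dusp2 had Nfkb2, an NF-kB subunit gene, at 0.0275, Tnip1 at 0.0591 and Nfe2l2 at 0.0789 (median 0.933). Dusp6 had Sema4b at 0.139, Nfe2 at 0.185 and Hhex at 0.243 (median 1.08).

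Markers of other cells of the peritoneum moved on the same arrays. The summed signal of the B cell list was 237062.5 on the naive array, 83354 and 71715 in the poly IC pools and 124688 and 126217 in the ethanol pools. That put the poly IC pools at 35.2% and 30.3% of naive and the ethanol pools at 52.6% and 53.2%. By limma, all 8 tested B cell genes were lower after poly IC (median -1.43), and 5 of 8 were higher with ethanol than with poly IC (median 0.79). Cd79b was left out next, as its naive signal was the highest of that list on any array. Without it the sums were 44.7% and 38.8% of naive after poly IC and 62.7% and 62.4% with ethanol. Cd79b, part of the B cell receptor, went from 62100 to 5064 and 3808 and then read 14953 and 17032. Ms4a1, Cd22 and Pax5 were not called with ethanol, and their ethanol pools overlapped the poly IC pools. Ms4a1 read 33208 and 27104 after poly IC and 36470 and 31694 with ethanol. Cd22 read 6119 and 4438, then 5340 and 4241, and Pax5 read 2768.5 and 2091, then 2495 and 3182. The order of groups for Mapk14 was the order of the B cell sum, and the part of B cells in the Mapk14 result was not tested.

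The neutrophil list, 13 of 14 genes with a probe set, summed to 23815 on the naive array, 136637.5 and 100277 in the poly IC pools and 45859 and 38488 in the ethanol pools. Of 11 tested neutrophil genes, 7 were higher and 1 lower after poly IC, and 6 were lower with ethanol than with poly IC (2 without poly IC replicate 1 and 4 without replicate 2). The 1 lower gene was Prtn3, S100a8 had the highest signal, and without S100a8 the sums were 343% and 258% of naive after poly IC and 151% and 122% with ethanol. Mpo, also in this list, was under the controls on all arrays. The macrophage sum lay between 121% and 134% of naive in all 4 treated pools, carried by Cd14, an inducible lipopolysaccharide co-receptor at 256% to 312% of naive. Without Cd14, left out after the values were seen, the other 9 markers summed to between 93.2% and 101% of naive. After poly IC 1 of 10 macrophage genes was higher and 2 were lower (median -0.02), and with ethanol 0 of 10 macrophage genes were called against poly IC by limma (2 at an unadjusted p under 0.05, and 3 called without ethanol replicate 1). Gata6, a factor of resident peritoneal macrophages, read 7218 on the naive array and between 1169 and 2188 in the treated pools. The T and NK cell sum was 55.2% and 39.9% of naive in the poly IC pools and 76.4% and 82.9% in the ethanol pools, with Cd3e and Cd8a under the controls on all arrays. Cd2 made up 21779 of the naive sum of 28441, and without it the list stood at 81.2% and 62.7% after poly IC and 65.8% and 76.6% with ethanol, so the groups then overlapped. Cd4 (191% and 123%) and Gzma (328% and 306%) stood above naive after poly IC. The erythroid sum rested on 4 of 7 genes and stood at 608% to 1845% of naive in the treated pools, mostly from the globin genes Hba-a1 and Hbb-b2, whereas Slc4a1 stood at 39.5% and 24.0% after poly IC and 71.1% and 111% with ethanol. The mast cell sum stood at 129% to 277% of naive with Mcpt4 under the controls, but without Hdc, the histamine-forming enzyme, it stood at 169% and 53.5% after poly IC and 97.1% and 88.3% with ethanol. The eosinophil sum lay at 82.9% to 96.9% with Prg2 and Epx under them. The part of these cells in the members' results was not tested.

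**Figure D4:**
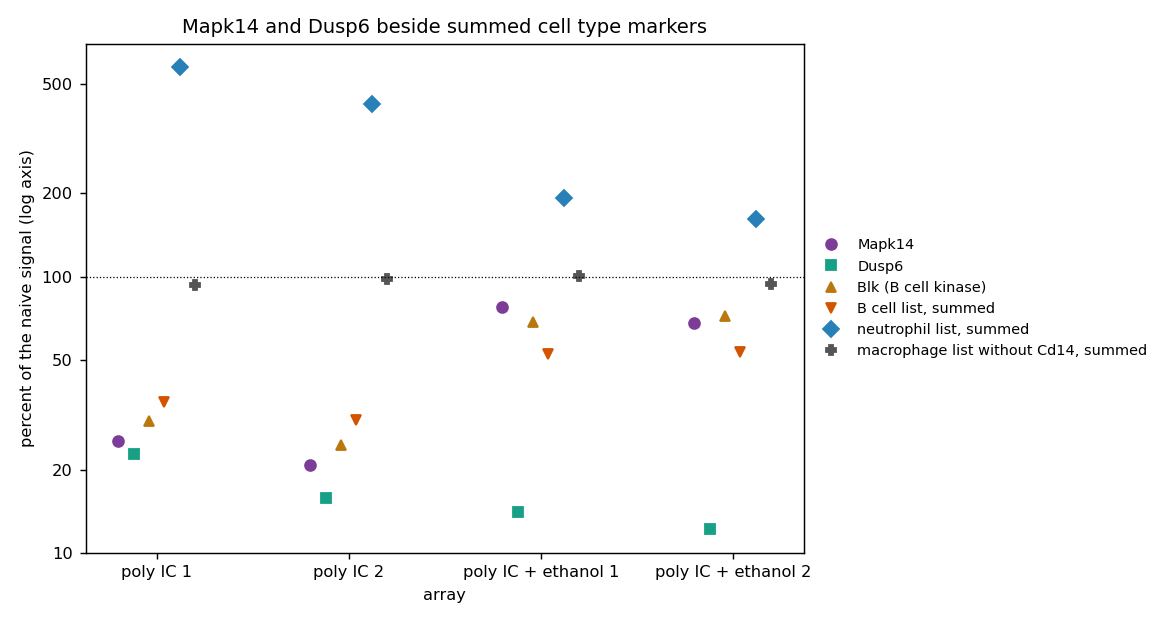
Percent of the naive signal (log axis, dotted line at 100) on each treated array for Mapk14, Dusp6, the B cell kinase Blk and the summed B cell list, neutrophil list and macrophage list without Cd14. Mapk14, Blk and the B cell sum stand higher in the ethanol pools than in the poly IC pools, and Dusp6 does not. Blk was picked for its likeness to Mapk14 on these same arrays, so its match is no separate result. The macrophage sum without Cd14 lies between 93.2% and 101%.

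The rest of the pathway was read with 1 probe set per gene, the brightest. The lists were read by counts and medians, beside a median over all 5443 genes of -0.16 for poly IC against naive and 0.07 for ethanol against poly IC. Of these 5443 genes, 32.2% were called after poly IC (11.9% higher and 20.3% lower) and 10.1% with ethanol (5.44% higher and 4.63% lower), and list counts near these shares are no result about a list. Leaving out either poly IC pool lowered the calls over all probe sets in both comparisons (last section). A call lost in that way, above or below, is thus not particular to its gene or list. Among MAP3 kinases and adaptors, 13 of 23 genes were tested. After poly IC 4 were higher and 3 lower, with a median of -0.15 (2 and 1 without poly IC replicate 1, 3 and 2 without replicate 2). Map3k8, whose product Tpl2 drives the ERK branch in macrophages, read 3455.5 on the naive array and 26695 and 24575 in the poly IC pools. Its difference was 2.80 (SE 0.18, limma adjusted p = 3.89e-06), and the ethanol pools at 25959 and 20379.7 differed from poly IC by -0.15 (adjusted p = 0.572). Map3k5, the stress kinase ASK1, rose by 1.01 (adjusted p = 0.00358). Map3k1, upstream of JNK, fell by 1.53 (adjusted p = 0.00062), although its second probe set gave -0.90 (adjusted p = 0.111).

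Among MAP2 kinases, 5 of 7 genes were tested, and 3 were higher and none lower after poly IC (median 0.61). Map2k4, which activates JNK and p38, rose by 1.30 (SE 0.21, limma adjusted p = 0.00139). Map2k3, which activates p38, rose by 1.11 (SE 0.19, adjusted p = 0.00191), and its second probe set by 0.71 (adjusted p = 0.0236). Map2k1, which activates ERK, read 9531 on the naive array, 14108 and 15286.5 after poly IC and 9095 and 9036 with ethanol. It rose by 0.61 after poly IC (adjusted p = 0.018) and was lower with ethanol, at -0.68 (SE 0.13, adjusted p = 0.0144). When poly IC replicate 1 or 2 was left out, neither Map2k1 call held, with ethanol differences of -0.74 (adjusted p = 0.0787) without replicate 1 and -0.62 (0.156) without replicate 2. Nor did either hold without the intensity trend (adjusted p = 0.0679 and 0.0854).

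Of the MAP kinase list, 5 of 14 genes were tested, and 1 was higher and 1 lower after poly IC (median -0.23). The higher one was Mapk6, the atypical kinase ERK3, with 5280.0 on the naive array and 24134 and 26474 in the poly IC pools, a difference of 2.21 (SE 0.22, limma adjusted p = 7.08e-05). The lower one was Mapk14. With ethanol, Mapk14 was the 1 gene of the 5 that was called, and Mapk6 differed by -0.10 (95% interval -0.50 to 0.29, adjusted p = 0.783).

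Among kinases activated by MAP kinases, 4 of 11 genes were tested. Mknk2 encodes a kinase of the translation factor eIF4E that ERK and p38 switch on. It read 8655 on the naive array, 1354 and 1490.2 in the poly IC pools and 3864 and 4952 in the ethanol pools. The log2 differences were -2.41 after poly IC (SE 0.22, limma adjusted p = 4.59e-05) and 1.47 with ethanol (SE 0.18, adjusted p = 0.0022). Its second probe set gave -1.73, which was called, and 0.70 (adjusted p = 0.203), which was not. Mapkapk2 was the 1 gene of this list that was higher after poly IC.

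Of the dual-specificity phosphatase list, 8 of 19 genes were tested, and after poly IC 4 were higher and 2 lower (median 0.27). The highest rise was that of Dusp16, the JNK phosphatase MKP-7, from 531.5 to 6420.5 and 5938 (3.04, SE 0.23, limma adjusted p = 1.1e-05). The others were Dusp2, Dusp1 and, named after its values were seen, Dusp11 at 0.76 (adjusted p = 0.0149), which acts on RNA rather than on MAP kinases. Beside Dusp6, the lower one was Styx, named likewise, a catalytically dead relative, at -1.004 (adjusted p = 0.0265). Dusp11 and Styx were not called when poly IC replicate 1 was left out (0.78 and -0.96) or when replicate 2 was (0.75 and -1.05), so that 3 genes were higher and 1 lower. With ethanol, 0 of the 8 were called by limma, with a median of -0.01 (1 was, lower, without ethanol replicate 1). Dusp16 differed by 0.27 (95% interval -0.14 to 0.69, adjusted p = 0.409). At an unadjusted p under 0.05 there were 2, Dusp6 and Dusp11, of which the latter differed by -0.50 (-0.85 to -0.14, adjusted p = 0.0832). A list of other phosphatases held, beside phosphatases of MAP kinases and of their activators, Ptpn22 and Ptprc, which act on tyrosine kinase signalling of lymphocyte receptors. Of its 5 tested genes, 1 was lower after poly IC. This was Ptpn22, with -1.26 (adjusted p = 0.00028) and then 0.86 with ethanol (SE 0.13, adjusted p = 0.00468), which became 0.80 (adjusted p = 0.0516) without poly IC replicate 2 and was not called without the intensity trend of the variance (adjusted p = 0.0613).

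Of scaffolds and feedback regulators, 10 of 15 were tested, with 2 higher and 1 lower after poly IC (median 0.23). The Gadd45 genes encode small activators of the p38 and JNK relays. Gadd45g rose by 2.51 (SE 0.18, limma adjusted p = 7.18e-06). Gadd45b, whose naive signal of 239.0 lay under the controls, was at least 24.7-fold higher, with a fitted log2 difference of 3.98. Its other probe set gave a smaller log2 difference of 2.49 (limma adjusted p = 2.86e-05). Mapk8ip3, a JNK scaffold, fell by 0.82 (adjusted p = 0.0257). When poly IC replicate 1 or 2 was left out, that became -0.73 (adjusted p = 0.122) or -0.92 (adjusted p = 0.0617). With ethanol, 2 of 10 were higher and none lower. Gadd45a read 6065 and 5299 in the poly IC pools and 17782 and 13420 in the ethanol pools, a difference of 1.41 (SE 0.17, adjusted p = 0.00212). Gadd45g was higher by 0.56 (adjusted p = 0.0414), which was no longer called when poly IC replicate 1 (0.66, adjusted p = 0.13) or 2 (0.46, adjusted p = 0.325) was left out.

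Transcription factors and early genes downstream of MAP kinases had 18 of 24 genes tested, with 3 higher and 7 lower after poly IC (median -0.18). Ets2 rose by 2.59 (SE 0.21, limma adjusted p = 2.01e-05) and Ier3 by 1.57 (SE 0.15, adjusted p = 5.38e-05), and Mef2d, a factor of the MEF2 family, fell by 2.501 (SE 0.19, adjusted p = 1.16e-05). Fos, an AP-1 subunit, read 36387.5 on the naive array and 16970 and 16856.5 in the poly IC pools, a difference of -1.09 (SE 0.16, adjusted p = 0.000817). Jun and Egr1 differed by 0.36 (adjusted p = 0.237) and -0.40 (adjusted p = 0.213). With ethanol, 5 were higher and 1 lower, but with median-centred arrays or without poly IC replicate 1 the counts were 0 and 1, and without poly IC replicate 2 they were 0 and 0. Jun was among the 5, at 0.65 (SE 0.17, adjusted p = 0.0485), and was not called without poly IC replicate 1 (0.51) or replicate 2 (0.78). Fos and Egr1 differed by 0.05 (adjusted p = 0.866) and 0.36 (adjusted p = 0.253).

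The list of MK2 substrates and messages with AU-rich elements had 11 of 14 genes tested, and 8 were higher and 2 lower after poly IC. The median was 3.02, or 2.76 with 3 genes under the controls on the naive array set at their bounds. Tnf read 466.8 on the naive array and 6489 and 6261 in the poly IC pools, a difference of 3.21 (SE 0.21, limma adjusted p = 5.22e-06). Il6 was at least 55.2-fold and Ptgs2 at least 27.2-fold higher. Zfp36, whose product tristetraprolin destroys such messages and is an MK2 substrate, rose by 0.83 (SE 0.15, adjusted p = 0.0024).

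With ethanol, 3 of these 11 were lower and 1 higher. Il1b read 45231 and 34334 in the poly IC pools and 20407 and 13655 in the ethanol pools, a difference of -1.23 (SE 0.20, limma adjusted p = 0.00756), and without poly IC replicate 1 it was -1.03 (adjusted p = 0.0662). Ptgs2 was lower by a log2 difference of -0.87 (adjusted p = 0.0144) and Zfp36 of -0.50 (adjusted p = 0.0313). Il6 was higher by 0.60 (adjusted p = 0.0357), and Tnf differed by 0.02 (95% interval -0.38 to 0.41, adjusted p = 0.972). Ptgs2, Zfp36 and Il6 were no longer called when poly IC replicate 1 was left out (-0.75, -0.61 and 0.73) or when replicate 2 was (-0.98, -0.40 and 0.46). Calls over all probe sets fell in these fits as well. The counts of the list were then 0 lower without poly IC replicate 1 and 1 lower without replicate 2, with 0 higher in both. Without the intensity trend, the ethanol calls of Il1b (adjusted p = 0.0752), Ptgs2 (0.0665), Zfp36 (0.163) and Il6 (0.123) were lost, as were those of Jun (0.111) and Gadd45g (0.126). With no filter, Jun, Gadd45g, Il6 and Zfp36 were also not called with ethanol (adjusted p from 0.0688 to 0.1), nor were Styx (0.0876) and Mapk8ip3 (0.0705) after poly IC.

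**Figure D5:**
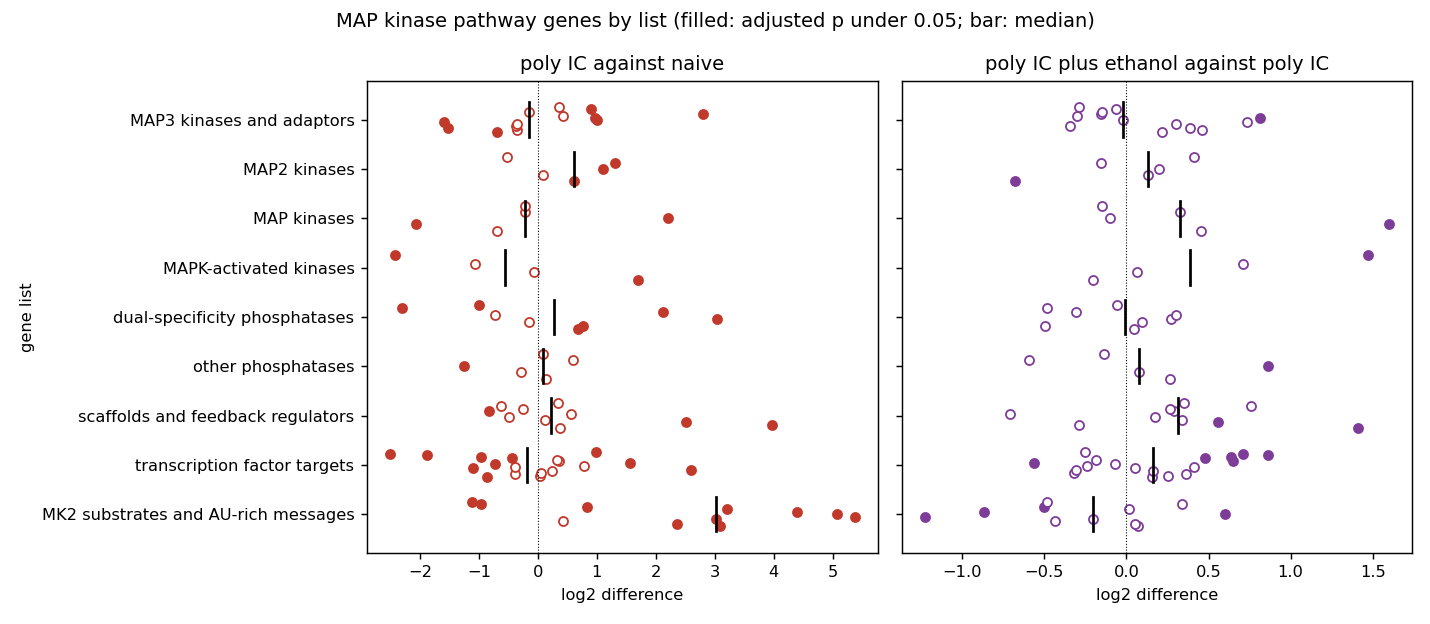
Log2 difference of each tested gene by pathway list, for poly IC against naive (left) and poly IC plus ethanol against poly IC (right), filled where the limma adjusted p was under 0.05, with a bar at each list's median. The MK2 and AU-rich list has its median at 3.02 on the left, and on the right Mapk14 at 1.60 is the filled point of the MAP kinases.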

How the data were processed

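The data were 1 intensity per probe set and array, deposited by the authors on a linear scale. Per the submitters' processing notes, signals came from Microarray Suite 5.0 with a scaling target of 2500, and Data Mining Tool 3.0 was used. Such scaling hides a broad change in RNA content. Samples were grouped by their titles. Names came from the platform annotation. Of 12488 probe sets, there were 66 controls, while 10833 had 1 gene symbol, 396 several and 1193 none listed. Of the 10833, 10817 were matched by Entrez identifier to RefSeq (GRCm38.p6).

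Probe sets with 1 symbol and a mean signal at or above the 40th percentile (551.8) were tested, 6500 in all. Group means of log2(signal + 250) over all 5 arrays were compared with limma 3.58.1 in R 4.3.3 (lmFit, eBayes with an intensity trend, two-sided, Benjamini-Hochberg over 6500). There were 2 residual and 7.28 prior degrees of freedom, so the number of arrays limits the precision. A probe set was called at adjusted p under 0.05. Where the lower group lay under the brightest of 19 unspiked control probe sets (299.6 to 443.8 by array), the fold is a lower bound against that control. Figures used matplotlib 3.10.9 in Python 3.11.15.

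Named genes were all members, up to 3 called genes of each list and comparison with the largest moderated statistic, Fos, Jun, Egr1, Zfp36 and Tnf, and the 3 genes most like each called member. Not all genes the rule allows are printed. The members and the lists were chosen with earlier results of these data known. Alternatives were offsets of 50 and 1000, no filter, a 60th percentile filter, median-centred arrays, quantile normalization, no trend, 1 probe set per gene, a replicate block and leaving out each array.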

Additional observations from a re-analysis of the deposited data

How the results depend on the processing

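Of 277 alternative values of the member probe sets, 271 kept their direction and their side of the threshold. Many of them could not change direction. The filters, the fit without the trend, 1 probe set per gene and the replicate block left each difference the same. So did leaving out an array of the group not compared. For ethanol against poly IC, the count of called probe sets was 609 and became 280 with no filter, 95 without the trend and between 120 (without poly IC replicate 2) and 1151 (without ethanol replicate 1) when an array was left out, with 208 without poly IC replicate 1. For ethanol against naive it was 1046 and became 684 without the trend and 806 to 1702 when an array was left out, highest without ethanol replicate 1. For poly IC against naive it was 2010 and became 1299 to 2657, lowest without poly IC replicate 2. The causes were not tested. Dusp1 reversed against poly IC, at -0.0493 with median-centred arrays and between -0.0431 (without ethanol replicate 1) and 0.135 (without ethanol replicate 2) when an array was left out, against 0.05. Dusp1 lost its call against naive under quantile normalization (poly IC, 0.34) and without the trend (poly IC 0.69, adjusted p = 0.0549; ethanol 0.73, adjusted p = 0.0773). Same-numbered pools did not deviate together (r = 0.0257 over 6500 probe sets). That value, from 1 pair of deviations over probe sets that are not independent, cannot show whether they were handled together. With the replicate number as a block, limma called 2164, 781 and 1229 probe sets, with 6, 1 and 5 of the members for poly IC against naive, ethanol against poly IC and ethanol against naive. Signal under the unspiked controls left the second Mapk8 and Dusp6 probe sets without a usable level.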
